A study of Homo sapiens with 6 samples.

Results

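The FOS genes (FOS, FOSB, FOSL1, FOSL2), the JUN genes (JUN, JUNB, JUND) and the early growth response genes EGR1, EGR2 and EGR3 were read on Agilent expression arrays of A673 cells, a human Ewing sarcoma line. A probe was taken when the RefSeq accession printed for it on the array design belonged to a listed gene. This gave 10 probes for the 10 genes, 1 each, of 50599 gene probes in all. The cells carried TR, the tetracycline repressor, and an inducible lentiviral vector that was either empty (A673/TR/empty, 3 arrays) or held LOX-PP (A673/TR/LOX-PP, 3 arrays), the propeptide that is cut from the lysyl oxidase precursor. The labels give doxycycline at 1 µM for 72 h for all 6 samples, while the study's methods name the induction without saying whether the control cells received it. For cell experiments other than the arrays the methods state 1 µg/ml, and for the arrays they state no concentration. Per the study's methods, stable clones were selected with zeocin and those with the highest expression were kept. How many clones stand behind each group is not given in the sources used here, and LOX-PP and clone cannot be told apart. The labels number the replicates 1 to 3 in each group, and the study's methods describe them as separate experiments.

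Between 56.9% and 74.8% of the gene spots lay well above background on an array, and no gene spot was saturated. The 75th percentile of the log2 signal, used to scale each array, was 12.9, 12.614 and 12.599 for replicates 1 to 3 of A673/TR/empty. It was 11.475, 12.61 and 11.702 for those of A673/TR/LOX-PP. Replicate 1 of A673/TR/LOX-PP was alone on slide 2 and scan 2, the other 5 arrays being on slide 1 and scan 1. The log2 signal of the only LOX probe, relative to the 75th percentile of the array, was -0.09, 0.36 and 0.11 in A673/TR/empty and -0.12, -0.68 and -1.29 in A673/TR/LOX-PP. It was thus not higher on the arrays labelled A673/TR/LOX-PP (log2 difference -0.82, adjusted p = 0.217 in limma). Whether this probe lies inside the propeptide cDNA is not known here, and directions rest on the labels. All 9 Ewing sarcoma marker genes examined were above background on all 6 arrays, and of these only PAX7 differed between the groups past the threshold (difference -1.93, adjusted p = 0.012). Among marker genes of other cell types, ALB (hepatocytes) was above background on no array, PTPRC, CD3E and EPCAM on all 6 and PECAM1 on 5. Of these, the 4 that were tested did not pass the threshold, the lowest adjusted p being 0.0955 for PECAM1, and their part in the results was not tested.

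Immediate early genes are transcribed from pre-existing factors soon after a growth signal, without new protein synthesis. The FOS and JUN proteins pair through leucine zippers to form the transcription factor AP-1, and the EGR proteins are zinc finger factors that bind GC-rich sites. ERK, the kinase whose signalling the study examined in these cells, phosphorylates ELK1, which acts with the serum response factor SRF at the CArG box, whereas CREB and ATF factors bind the sequence TGACGTCA and its shorter form TGACGT.

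Promoter windows from RefSeq (GRCh38.p14), running from 250 bases before to 50 bases after the annotated start, were held for 8 of the 10 genes. The 6 genes whose window carries the CArG box or a TGACGT element are shown here, 5′ to 3′ on the gene's strand, as the 250 bases before the start. They are chr14:75278578-75278827 (plus strand) for FOS, chr19:45467746-45467995 (plus strand) for FOSB, chr2:28392608-28392857 (plus strand) for FOSL2, chr19:18281623-18281872 (minus strand) for JUND, chr5:138465229-138465478 (plus strand) for EGR1 and chr10:62816367-62816616 (minus strand) for the third EGR2 window. Capitals mark matches on either strand to the CArG box, to TGACGT, to TGACGTCA, which contains it, and to the EGR motif GCGNGGGCG.

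FOS: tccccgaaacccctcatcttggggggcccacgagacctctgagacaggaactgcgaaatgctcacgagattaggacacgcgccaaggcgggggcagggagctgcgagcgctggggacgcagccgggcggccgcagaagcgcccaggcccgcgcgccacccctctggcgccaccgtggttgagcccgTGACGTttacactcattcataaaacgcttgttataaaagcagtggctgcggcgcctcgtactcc
FOSB: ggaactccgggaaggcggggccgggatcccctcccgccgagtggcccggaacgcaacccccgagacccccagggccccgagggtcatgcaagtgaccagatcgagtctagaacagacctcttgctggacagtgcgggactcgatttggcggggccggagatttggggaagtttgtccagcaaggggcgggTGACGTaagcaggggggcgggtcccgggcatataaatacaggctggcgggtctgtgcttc
FOSL2: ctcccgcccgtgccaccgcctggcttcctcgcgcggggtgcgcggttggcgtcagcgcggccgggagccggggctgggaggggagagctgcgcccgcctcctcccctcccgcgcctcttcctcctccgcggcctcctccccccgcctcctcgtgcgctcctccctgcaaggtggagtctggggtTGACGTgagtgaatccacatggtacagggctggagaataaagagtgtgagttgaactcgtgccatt
JUND: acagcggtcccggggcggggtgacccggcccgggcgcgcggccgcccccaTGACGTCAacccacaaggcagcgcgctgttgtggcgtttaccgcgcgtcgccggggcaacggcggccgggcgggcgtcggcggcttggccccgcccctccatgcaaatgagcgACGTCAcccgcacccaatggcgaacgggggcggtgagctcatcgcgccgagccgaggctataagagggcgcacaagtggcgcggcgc
EGR1: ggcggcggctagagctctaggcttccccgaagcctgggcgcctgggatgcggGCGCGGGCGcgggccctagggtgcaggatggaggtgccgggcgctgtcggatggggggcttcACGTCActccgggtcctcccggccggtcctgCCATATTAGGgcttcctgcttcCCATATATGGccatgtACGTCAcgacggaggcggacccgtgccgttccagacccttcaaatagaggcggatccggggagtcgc
EGR2: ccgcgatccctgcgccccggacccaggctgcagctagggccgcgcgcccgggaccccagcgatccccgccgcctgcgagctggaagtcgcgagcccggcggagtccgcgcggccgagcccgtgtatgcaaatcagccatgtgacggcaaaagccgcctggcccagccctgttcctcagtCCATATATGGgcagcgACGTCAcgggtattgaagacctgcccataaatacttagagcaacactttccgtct

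EGR1 held CArG boxes at -105 and -83 from the start, and EGR2 held 1 at -71. The windows of the other genes, FOS among them, held none, but a box more than 250 bases before the start would be missed. A CArG box was found in 1.29% of the 35116 RefSeq windows of this length. TGACGT lay at -64 in FOS, -60 in FOSB, -66 in FOSL2, -136 and -67 in EGR1 and -55 in EGR2. With JUND, whose TGACGTCA lay at -200 and a further TGACGT at -87, 6 of the 8 genes held this element. By window this was 6 of 10, beside 7.98% of all windows, and the element was chosen after the sequences had been read. TGACGTCA itself occurs in 1.85%. The AP-1 motif TGANTCA, in 7.71% of windows, was matched only in FOSL2, at 5 after the start. GCGNGGGCG, in 9.43% of windows, was matched in EGR1 at -198 and in a second EGR2 window at 9 after the start. No motif searched was matched in the JUN and JUNB windows. A match is a run of letters and does not show that a factor was bound.

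Of the 10 genes, 9 had a probe well above background on at least 3 arrays and were tested, and 8 of these lay above background on all 6. None of the 9 passed an adjusted p of 0.05 in the limma fit over all 32647 tested probes, of which 1849 (5.66%) did, with 3.31% higher and 2.36% lower in A673/TR/LOX-PP. The lowest adjusted p was that of FOSB, 0.0516, which ranked 1895 by p. At an unadjusted limma p under 0.05 there were 3 genes, FOSB, JUNB and JUN, all with the higher level on the LOX-PP arrays. This was so for 12.3% of all tested probes, and 21.3% had such a p in either direction. By the methods' t-test none passed after adjustment and 2 did before it, FOSB and JUN, against 19.7% of all probes. The difference was above 0 for 8 genes and below 0 for FOSL1, and 59% of all probes had a difference above 0. The median difference of the 9 genes was 0.645 on the log2 scale, beside 0.127 over all tested probes, and 7 of the 9 lay above that median. For FOS, FOSB, JUN, JUNB and EGR1 all LOX-PP arrays lay above all empty arrays in the scaled signal, which was the case for 16.1% of all tested probes. Under quantile normalization this held for 4 of them, without JUNB, and for 13.7% of all probes. For none did all LOX-PP arrays lie below, beside 13.3% of all probes. The exact two-sided permutation test gave 0.1 for each of the 5, the smallest p that 3 against 3 arrays allow.

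**Figure D1:**
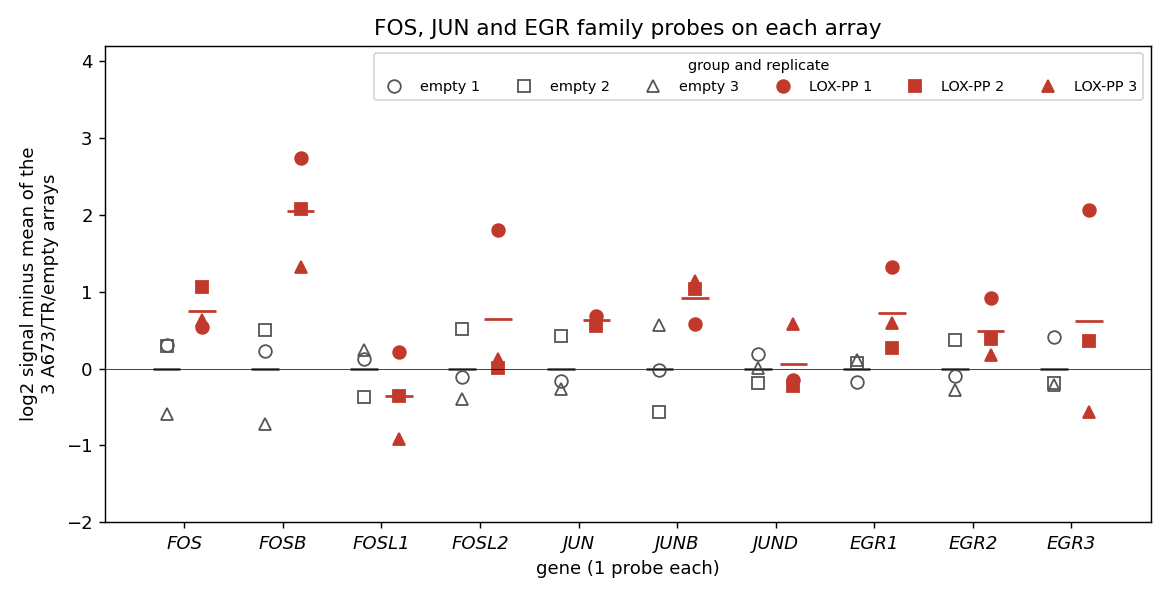
Log2 signal of each of the 10 genes (x axis) on each array, minus the mean of the 3 A673/TR/empty arrays (y axis), with open grey symbols for A673/TR/empty, filled red symbols for A673/TR/LOX-PP, 1 shape per replicate number and short bars for the group means. The LOX-PP points lie wholly above the empty points for FOS, FOSB, JUN, JUNB and EGR1, by gaps from 0.013 (JUNB) to 0.83 (FOSB).

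Levels are given below as log2 signal over the 75th percentile of the array, for replicates 1, 2 and 3 in that order, and are not compared between genes, since each comes from its own probe. Differences are LOX-PP minus empty on the same log2 scale.

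FOSB, an AP-1 subunit with a short-lived and highly inducible transcript, had the largest difference among the 9 tested genes. Its level was -3.67, -3.40 and -4.62 in A673/TR/empty and -1.16, -1.82 and -2.57 in A673/TR/LOX-PP. The groups did not overlap and lay 0.83 apart at their nearest, with replicate 3 the lowest array in each group. The difference was 2.05 (SE 0.459, 95% interval 0.96 to 3.13), or 4.13-fold on the signal scale (1.94 to 8.77). The probe was above background on 2 of the 3 empty arrays and on all 3 LOX-PP arrays. Its adjusted p crossed the threshold with another background correction (normexp, 1.61, adjusted p = 0.0275) and with replicate number as a block (0.038). It was 0.119 under quantile normalization, 0.152 with no filter and 0.164 by the methods' t-test. On leaving out 1 array the adjusted p ran from 0.0537 to 0.167, and it was 0.078 without LOX-PP replicate 1, where the difference was 1.70.

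FOS, the founding member of the family and the partner of JUN in the classical AP-1 dimer, read -0.05, -0.06 and -0.94 in A673/TR/empty and 0.19, 0.71 and 0.28 in A673/TR/LOX-PP. Empty replicate 3 was well below the other 5 arrays, and the nearest arrays of the groups were 0.24 apart. The difference was 0.74 (SE 0.318, 95% interval -0.0075 to 1.5, adjusted p = 0.238), and it was 0.45 without empty replicate 3.

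The FOS-related antigens FOSL1 and FOSL2, which lack the strong activation domain of FOS, overlapped between the groups. FOSL1 was at 0.01, -0.48 and 0.13 in A673/TR/empty and at 0.11, -0.47 and -1.04 in A673/TR/LOX-PP. The difference was -0.35 (SE 0.344, 95% interval -1.17 to 0.464, adjusted p = 0.608), with LOX-PP replicate 3 the lowest. It was -0.066 without LOX-PP replicate 3, -0.23 without empty replicate 3, -0.54 without empty replicate 2 and -0.64 without LOX-PP replicate 1. FOSL2 was at -3.02, -2.39 and -3.30 on the empty arrays and at -1.10, -2.89 and -2.78 on the LOX-PP arrays, so that LOX-PP replicate 1 stood alone. Its difference of 0.64 (SE 0.519, 95% interval -0.585 to 1.87, adjusted p = 0.524) was 0.07 without that array.

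JUN, the main dimer partner of the FOS proteins, was at 1.53, 2.12 and 1.43 on the empty arrays and at 2.38, 2.25 and 2.37 on the LOX-PP arrays. The LOX-PP arrays were close together (SD 0.0724, n = 3) and the empty arrays more spread (SD 0.373, n = 3), with 0.13 between the nearest arrays of the groups. The difference was 0.64 (SE 0.252, 95% interval 0.0393 to 1.23), 1.55-fold on the signal scale, with an adjusted p of 0.209.

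JUNB, which forms AP-1 dimers that can oppose those of JUN, read -1.55, -2.10 and -0.97 in A673/TR/empty and -0.96, -0.51 and -0.40 in A673/TR/LOX-PP. The groups were apart by 0.013 only, and under quantile normalization they overlapped. The difference was 0.92 (SE 0.338, 95% interval 0.121 to 1.72), 1.89-fold, with an adjusted p of 0.178. JUND, the JUN gene that is expressed rather constantly in many cells, was at 1.06, 0.68 and 0.88 on the empty arrays and at 0.72, 0.64 and 1.45 on the LOX-PP arrays. The groups overlapped, and the interval of the difference of 0.06 (SE 0.285) ran from -0.61 to 0.739. Its sign turned when empty replicate 2 (-0.032) or LOX-PP replicate 3 (-0.19) was left out.

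EGR1, a zinc finger factor and a common reporter of ERK activity, was at 2.81, 3.06 and 3.10 on the empty arrays and at 4.31, 3.27 and 3.59 on the LOX-PP arrays. The groups were 0.17 apart, and LOX-PP replicate 1, the array on the other slide, stood above the rest. The difference was 0.73 (SE 0.309, 95% interval -0.00185 to 1.46, adjusted p = 0.235), and it was 0.43 without that array. EGR2, known for its role in myelinating Schwann cells and in lymphocytes, was at 1.58, 2.04 and 1.40 on the empty arrays and at 2.59, 2.06 and 1.85 on the LOX-PP arrays. The groups overlapped, with a difference of 0.50 (SE 0.29, 95% interval -0.193 to 1.18, adjusted p = 0.376). EGR3, known for its role in muscle spindles and lymphocytes, was above background on 1 array of each group and was not tested. It read -5.49, -6.10 and -6.12 in A673/TR/empty and -3.85, -5.55 and -6.47 in A673/TR/LOX-PP, so that the groups overlapped.

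**Figure D2:**
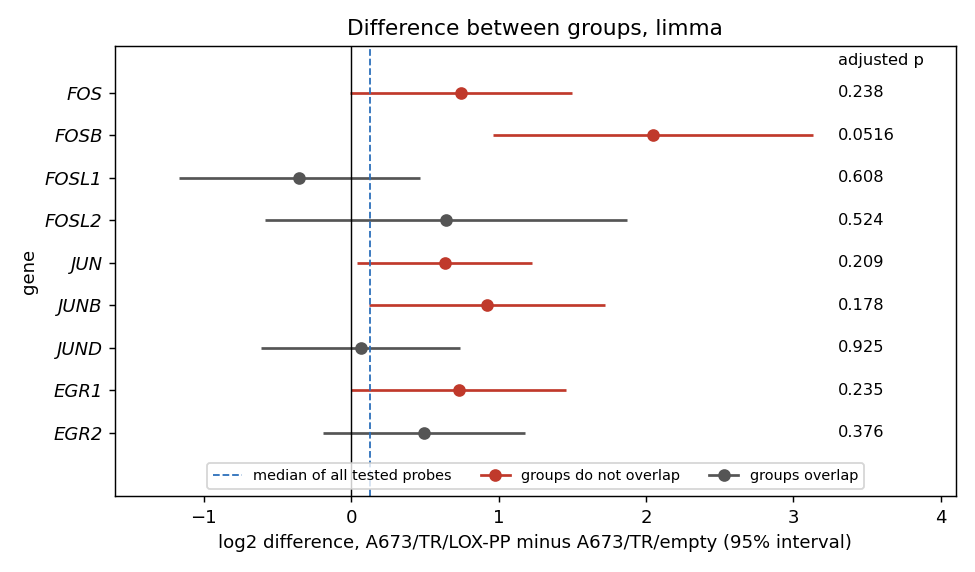
Difference in log2 signal (x axis, LOX-PP minus empty) with its 95% interval from limma for the 9 tested genes (y axis), with the adjusted p at the right and the median of all tested probes as a broken line. Only the intervals of FOSB, JUN and JUNB lie wholly above 0, and no adjusted p is under 0.05.

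The within-group SD of the 9 tested probes ranged from the 30.5th percentile of all tested probes for JUN to the 86.9th for FOSL2. LOX-PP replicate 1 was the highest of the 6 arrays for 5 of the 9 tested genes, beside 23.2% of all tested probes, and the highest of the 3 LOX-PP arrays for 6 of them, beside 30.6%. Since this array is also alone on its slide, array and slide cannot be told apart. Without it the difference was 0.85 for FOS, 1.70 for FOSB, 0.61 for JUN and 1.09 for JUNB, and it was 0.43 for EGR1 and 0.29 for EGR2. The sign was kept in each of the 9 genes.

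**Figure D3:**
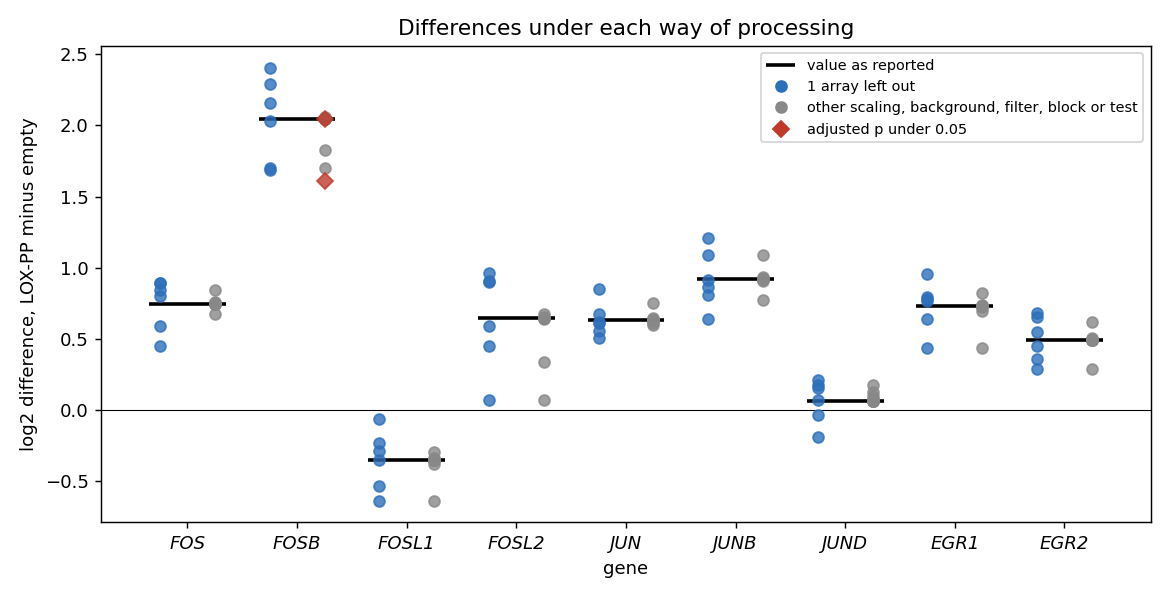
Log2 difference, LOX-PP minus empty (y axis), of each tested gene (x axis), with a black bar for the value as reported, blue points for fits with 1 array left out, grey points for the other alternatives and red diamonds for an adjusted p under 0.05. FOSB stays between 1.61 and 2.41 and JUND is the only gene with points on both sides of 0.

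Genes whose deviations from the group means ran most like those of FOS, JUN and EGR1 were sought among 14175 named genes over the 6 arrays. For FOS they were ZNF548 (r = 0.9956), MANEAL (0.9938) and CLASP1 (0.9931). For JUN they were FOXO3 (0.9978), USP1 (0.9977) and RHOBTB1 (0.9954), and for EGR1 they were ATP7A (0.9993), CCDC7 (0.9993) and COPS9 (0.9992). In all, 90, 103 and 315 genes had an r over 0.95 with FOS, JUN and EGR1. The points share their arrays, slide and scaling, and the values are a description.

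Other immediate early genes lay on both sides of 0, with 17 of the 33 tested genes above it. This list held 34 genes, and 1 rose and 2 fell past the threshold (9.09%, beside 7.07% of 16601 genes taken with 1 probe each, 3.7% higher and 3.37% lower). The median difference of the list was 0.0329, and that of all genes 0.034. DUSP1, a phosphatase that inactivates MAP kinases, rose from -0.01, 0.23 and 0.01 to 1.21, 1.82 and 1.39. Its difference was 1.40 (SE 0.241, adjusted p = 0.0229). NR4A3, an orphan nuclear receptor, fell from 2.03, 2.30 and 1.45 to -0.46, -0.16 and -0.65 (difference -2.35, SE 0.288, adjusted p = 0.00727). HBEGF, a ligand of the EGF receptor, fell from 0.62, 0.63 and 0.79 to -0.65, -0.09 and -0.48 (difference -1.08, SE 0.231, adjusted p = 0.0442). For each of these 3 genes the groups did not overlap. Leaving out 1 array at a time ended the call of HBEGF in 6 of 6 fits (adjusted p 0.0559 to 0.199), that of DUSP1 in 5 (all but that without LOX-PP replicate 1, up to 0.142) and that of NR4A3 without empty replicate 1 only (0.0557). By the methods' t-test all of these calls were lost (adjusted p 0.0561 for NR4A3, 0.0664 for DUSP1 and 0.0816 for HBEGF). Those of DUSP1 and HBEGF were also lost with no filter (0.0963 and 0.157) and with replicate number as a block (0.0582 and 0.114). IER2, a nuclear protein of the early response, had a difference of 0.50 (adjusted p = 0.345) and MYC one of -0.40 (adjusted p = 0.415).

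Among dimer partners, co-regulators and upstream factors of AP-1 and EGR, 32 of 34 genes were tested. Of these 2 rose and 0 fell (6.25%, beside 7.07% of all genes, of which 3.7% higher and 3.37% lower). The median difference was 0.13, beside 0.034 over all genes. EGR4, the remaining member of the EGR family, read 0.85, 0.90 and -0.10 in A673/TR/empty and 2.58, 2.47 and 1.80 in A673/TR/LOX-PP, without overlap. It rose by 1.73 (SE 0.361, adjusted p = 0.0416), and the call was lost on leaving out any 1 of the 6 arrays (adjusted p 0.0556 to 0.134). BATF2, a leucine zipper partner of JUN proteins, was above background on 1 empty and 2 LOX-PP arrays, so that its size rests on values near background. It passed with a difference of 1.87 (SE 0.404, adjusted p = 0.0458), but not with a common floor (0.65, adjusted p = 0.325), normexp (1.11, adjusted p = 0.162) or quantile normalization (1.57, adjusted p = 0.181). Its call was lost in 5 of 6 such fits (all but that without LOX-PP replicate 1), with an adjusted p of up to 0.193. ELK1 had a difference of 0.38 (adjusted p = 0.312), SRF one of -0.73 (adjusted p = 0.211) and NAB2, a corepressor of EGR proteins that EGR1 also induces, one of 0.37 (adjusted p = 0.413).

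All 24 genes on a list of AP-1 and EGR targets were tested, and 2 rose and 3 fell (20.8%, beside 7.07% of all genes, of which 3.7% higher and 3.37% lower). The median difference was 0.623, beside 0.034 over all genes. Like the other lists, this list was chosen with earlier results of these data known. Its share and median therefore describe the chosen genes and are no test of AP-1 and EGR targets. The matrix metalloproteinase MMP10 went from 0.93, 1.37 and 1.19 on the empty arrays to -2.82, -3.18 and -2.02 on the LOX-PP arrays. It fell by 3.84 on the log2 scale (SE 0.337, adjusted p = 0.00225) and passed the threshold in every alternative run. MMP9, a gelatinase, fell from 2.24, 2.34 and 2.26 to 0.61, 0.55 and 0.82 (difference -1.62, SE 0.2, adjusted p = 0.00731), and the adjusted p was 0.0642 without empty replicate 1 and 0.0554 without empty replicate 2. The urokinase gene PLAU had 1 of its 2 probes called and fell by 1.20 (SE 0.253, adjusted p = 0.0431), with both probes in the same direction. Its call was lost under quantile normalization (difference -1.09, adjusted p = 0.0523) and kept with normexp (adjusted p = 0.035). AREG, a ligand of the EGF receptor, was above background on 1 of 3 empty arrays and all 3 LOX-PP arrays, and it rose by 2.31 (SE 0.493, adjusted p = 0.0441). The size rests on empty values near background, being 1.51 with a common floor (adjusted p = 0.0186) and 1.35 with normexp, where the call was lost (adjusted p = 0.1), as it was under quantile normalization (adjusted p = 0.0569). The cytokine IL6 rose by 1.40 (SE 0.308, adjusted p = 0.0483) with 2 of 3 empty arrays above background, and the call was lost under quantile normalization (0.94, adjusted p = 0.0936) and normexp (1.10, adjusted p = 0.0809). The calls of PLAU and IL6 were lost on leaving out any 1 of the 6 arrays (adjusted p up to 0.192 and 0.215), and that of AREG on leaving out any but empty replicate 3 (up to 0.19). The interstitial collagenase MMP1, a classical AP-1 target, had a difference of -0.34 (adjusted p = 0.641).

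**Figure D4:**
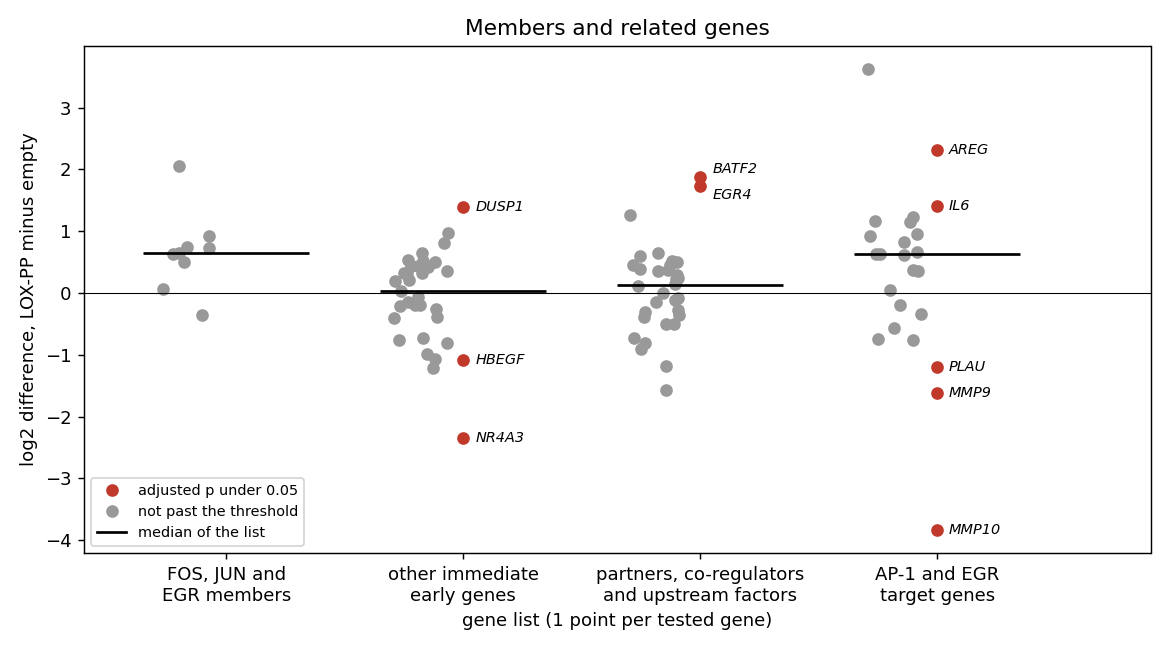
Log2 difference (y axis, LOX-PP minus empty) of each tested gene of the FOS, JUN and EGR set and of the 3 lists of related genes, with 1 point per gene, red points and names for an adjusted p under 0.05 and a black bar for the median of each list. The medians are 0.645, 0.0329, 0.13 and 0.623, and MMP10 at -3.84 is the lowest point.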

How the data were processed

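The authors labelled RNA of the 6 samples with Cy3, hybridised it to Agilent 60K arrays and read spots with Feature Extraction 10.7. They deposited spot intensity from which the scanner software had taken the background, and a matrix of log2 values centred per probe, which served as an alternative. Here the log2 signal of a probe was reduced by the 75th percentile of the array. The 32647 of 50599 probes that the software called well above background on 3 or more arrays were tested with limma 3.58.1 in R 4.3.3 on all 6 arrays, with Benjamini-Hochberg adjustment over all of them and a threshold of 0.05. The script was tested on simulated data. The number of arrays limits the precision.

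Accessions were matched to RefSeq symbols, which named 28174 probes (55.7%). The named genes are all members, every gene of a list past the threshold, or the 3 with the largest t where none passed, the 3 most alike genes, and a few cofactors and classical early or target genes (IER2, MYC, ELK1, SRF, NAB2, MMP1) that were added to the text after their values were seen. Some genes of the lists are not reported here. A list gene with several probes is read by the brightest. The members and the 3 lists were chosen with earlier results of these data known. The methods' t-test is Student's test on the same values. Alternatives were another scaling (quantile, median), the authors' values, normexp, a common floor, no or a stricter filter, slide or replicate number as a block, and leaving out each array.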

Additional observations from a re-analysis of the deposited data

How the results depend on the processing

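Of 143 recomputed differences of the 9 genes, 139 kept their direction and their side of the threshold. These are not independent checks. The common floor, the other filters, the replicate block and the t-test left the differences of these 9 genes unchanged, and the authors' values gave nearly the same differences. Slide as a block is the same fit as leaving out LOX-PP replicate 1, so that this fit enters the count under both names. FOSB passed with normexp and with the replicate block, making 1 gene called in each, and JUND turned to -0.032 without empty replicate 2 and to -0.19 without LOX-PP replicate 3 (range -0.193 to 0.213 on leaving out an array). Leaving out 1 array at a time gave 0 to 0 called genes of the 9. Whether arrays with the same replicate number belong together is not given. Their deviations from the group means had correlations of 0.267, -0.39 and 0.227 for numbers 1, 2 and 3. These values differ in sign and cannot decide it. With the replicate number as a block all called probes came to 860, FOSB had an adjusted p of 0.038, and the lists held 1 (other immediate early genes), 1 (partners) and 3 (targets). All called probes numbered 516 with no filter, 566 by the methods' t-test and 407 to 2062 on leaving out an array. They were 407 without empty replicate 1, 444 without empty replicate 2, 892 without LOX-PP replicate 2 and 1037 without LOX-PP replicate 3. Quantile normalization called 1891 probes, 48% of them higher against 58.4% in the processing used, and moved the median difference of all probes from 0.127 to -0.0343. The called genes on the lists of other immediate early genes, partners and targets were 1, 0 and 2 with no filter and 0, 0 and 2 by the t-test. With slide as a block partners had 1 and targets 2, and targets had 3 under both quantile normalization and normexp. Leaving out an array gave 0 to 3, 0 to 1 and 1 to 5 called genes on these lists. The cause of these changes was not tested. EGR3, left out of the test by the filter, had a difference of 0.615 (SE 0.678, adjusted p = 0.778) with no filter.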
